A study of Mus musculus with 6 samples.

Results

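The genes described here encode the protein subunits of the mitochondrial ribosome in D10 cells, a cloned mouse helper T cell line that recognizes conalbumin. They were taken as every protein-coding gene whose symbol begins with Mrpl or Mrps followed by a digit, which gave 78 genes (49 Mrpl and 29 Mrps) of the 41079 genes listed and of the 22255 protein-coding genes among them. Poly(A)-selected RNA was sequenced from 3 non-acclimated libraries, from cells kept for 24 h at 37°C, and from 3 cold-acclimated libraries, from cells kept for 24 h at 26°C. Both conditions are labelled as the same cloned line without further treatment. The comparison asked how the RNA levels of these genes differed after cold acclimation.

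The mitochondrial ribosome translates the few messenger RNAs of the mitochondrial genome, which encode core subunits of the respiratory chain and of ATP synthase. All of its proteins are encoded in the nucleus, translated in the cytosol and imported, whereas its RNAs are transcribed inside the organelle. Part of the proteins descend from those of bacterial ribosomes and the others were added during the evolution of mitochondria. The large subunit forms the peptide bond and the small subunit decodes the messenger RNA. By current structural names, 51 of the 78 genes encode large-subunit proteins, Mrps30 and Mrps18a among them in spite of their symbols, and 26 encode small-subunit proteins. The remaining gene, Mrps36, encodes a component of the 2-oxoglutarate dehydrogenase complex. Of the 78, 45 have a bacterial counterpart, 30 are specific to mitochondria and 3 were not classed.

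Levels are given as TPM, in which reads are scaled by transcript length and to a fixed total of transcripts in each library. Recovered totals were 16899628 to 31290854 reads at 37°C and 19605883 to 25169484 reads at 26°C. At these depths each of the 78 genes had between 36 and 5912 reads in a library (median 785.5), and all 78 passed the filter of a mean of at least 1 TPM that left 12227 genes to test. Libraries of replicates 2 and 3 stood apart in single T cell markers. Cd4, the co-receptor of helper T cells, was at 0.0351 to 1.30 TPM in replicates 1 and 2 of both conditions but at 310 TPM and 328 TPM in replicate 3. Cd3d, a chain of the T cell receptor complex, was at 64.3 and 78.6 TPM in replicate 2 and at 240.1 to 332.4 TPM in the others, and the co-stimulatory receptor Cd28 was at 7.35 and 5.61 TPM in replicate 2 and at 27.9 to 54.5 TPM in the others. Of 13 T cell markers, 11 were above 1 TPM in every library, with sums of 3714 to 4922 TPM at 37°C and 4570 to 5222 TPM at 26°C. The exceptions were Cd4 and Cd5, and Cd5 was at 0 TPM except in cold-acclimated replicate 3 (0.0454 TPM). The 4 CD8 T cell markers summed to 18.3 to 50.6 TPM at 37°C and 8.15 to 40.6 TPM at 26°C, nearly all of it Prf1. The 6 B cell markers summed to at most 1.11 TPM at 37°C and 1.07 TPM at 26°C, and the 6 macrophage markers to at most 15.9 and 21.2 TPM. The 6 erythroid markers summed to 79.9 to 487.0 TPM at 37°C and 61.3 to 474.4 TPM at 26°C, nearly all of it Hba-a1, which was highest in replicate 3 of both conditions. The part of these differences in the results was not tested, and the calls are also given without replicate 2 and without replicate 3.

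Fold changes are differences of log2(TPM + 1), 26°C minus 37°C, with the standard error (SE) and the Benjamini-Hochberg adjusted p of limma over all tested genes. A gene was called when its adjusted p was under 0.05 and the log2 fold change reached 1 in either direction. Over all tested genes the log2 fold changes had a median of -0.34, or of 0.02 after median of ratios scaling, in which each library is divided by the median of its genes' ratios to their means. Changes are therefore also given relative to that median. In bulk RNA, fewer cells expressing a gene and less RNA per cell cannot be told apart.

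Of the 78 log2 fold changes, 47 lay between -0.5 and 0.5 before scaling. The share of all tested genes in that range was not counted, so nothing is read from this count. The quartiles of the 78 genes were -0.58 and 0.15, against -0.95 and 0.18 among all tested genes. Only Mrpl9 was called upregulated (1.28% of the 78, where 2.63% of all tested genes were called), and Mrpl14, Mrpl51, Mrps12 and Mrps25 were called downregulated (5.13%, against 16.0% of all tested genes). Without the requirement on size, Mrpl9 remained the only higher gene (all tested genes, 3.3%), and Mrpl24 joined the lower ones to make 5 (6.41%, against 17.4%). The shares of lower genes were below those of all tested genes under both rules.

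**Figure D1:**
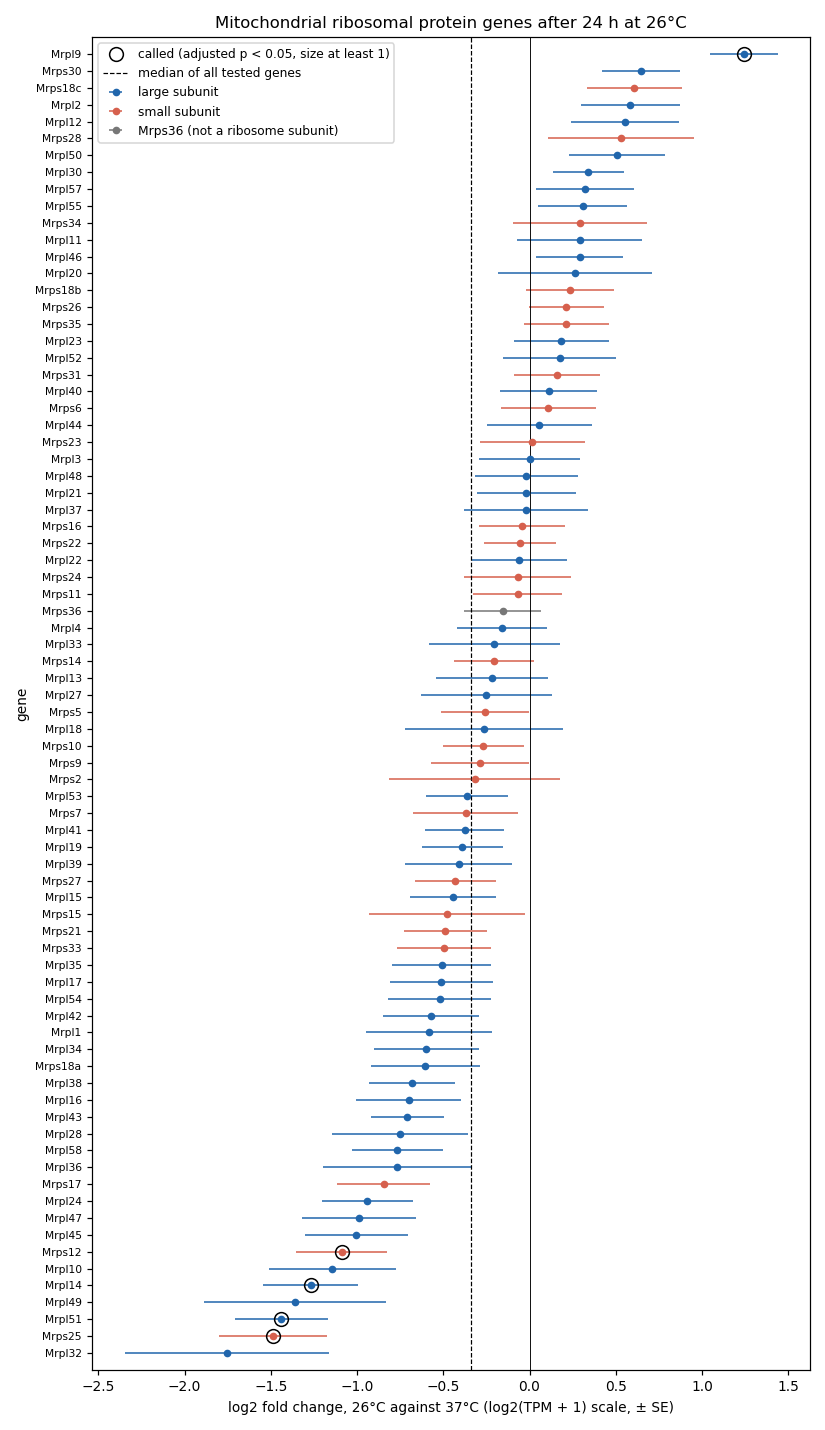
Log2 fold changes of the 78 genes, 26°C against 37°C on the log2(TPM + 1) scale, with bars for the SE of limma (n = 3 libraries per condition) and colours for the subunit; the dashed line marks the median of all tested genes. Mrpl9 lies alone at the upper end at 1.24, the called downregulated genes lie between -1.49 and -1.09, and Mrpl32 at the lower end has the widest bar.

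The sequences at the start sites of 6 genes are shown, chosen after their values were seen: 4 of the 5 called genes, and Mrpl30 and Mrpl32, which are compared with their neighbours. The start of Mrpl14 lies 7 bases from that of Tmem63b and is not shown. They come from the GRCm39 genome and are placed by the canonical transcripts of GENCODE. Capitals mark letters that match the searched motifs of NRF1 (GCGCA, any base, then GCGC), ETS factors such as GABPA (CCGGAAG) or YY1 (AAGATGG) on either strand. These factors are known regulators of nuclear genes for mitochondrial proteins. For Mrpl9 (chr3:94350394-94350623, plus strand) and Mrps25 (chr6:92161014-92161243, minus strand), the window ran from 200 bases before the start to 30 bases from it, and held none of the 3 motifs.
Mrpl9: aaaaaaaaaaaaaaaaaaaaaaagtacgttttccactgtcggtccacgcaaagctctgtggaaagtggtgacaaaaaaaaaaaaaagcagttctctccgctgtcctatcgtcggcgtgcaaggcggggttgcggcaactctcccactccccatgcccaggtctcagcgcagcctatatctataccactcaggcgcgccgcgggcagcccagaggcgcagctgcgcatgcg
Mrps25: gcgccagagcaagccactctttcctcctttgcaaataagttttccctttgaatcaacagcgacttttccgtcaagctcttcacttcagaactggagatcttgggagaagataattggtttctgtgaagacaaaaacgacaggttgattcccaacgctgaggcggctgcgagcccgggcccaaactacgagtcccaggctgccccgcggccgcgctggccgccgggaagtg
The 4 other stretches run between the starts of 2 genes read in opposite directions, with 30 transcribed bases of each, on the strand of the ribosomal protein gene. Mrpl51 and Ncapd2 (chr6:125169051-125169153, plus strand) start 44 bases apart, and Mrps12 and Sars2 (chr7:28441239-28441426, minus strand) 129 bases apart. Mrpl30 and Mitd1 (chr1:37929468-37929587, plus strand) start 61 bases apart, and Mrpl32 and Psma2 (chr13:14787721-14787833, minus strand) 54 bases apart.
Mrpl51 with Ncapd2: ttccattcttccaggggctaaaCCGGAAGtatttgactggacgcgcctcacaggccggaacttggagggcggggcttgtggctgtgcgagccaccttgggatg
Mrps12 with Sars2: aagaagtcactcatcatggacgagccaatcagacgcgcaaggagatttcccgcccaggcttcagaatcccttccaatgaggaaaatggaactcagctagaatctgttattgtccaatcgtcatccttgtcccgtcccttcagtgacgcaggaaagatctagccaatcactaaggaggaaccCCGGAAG
Mrpl30 with Mitd1: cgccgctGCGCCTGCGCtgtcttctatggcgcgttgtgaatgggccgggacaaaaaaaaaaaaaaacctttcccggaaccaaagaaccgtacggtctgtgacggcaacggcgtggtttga
Mrpl32 with Psma2: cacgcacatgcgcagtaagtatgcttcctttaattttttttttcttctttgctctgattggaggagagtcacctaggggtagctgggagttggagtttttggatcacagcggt
The first stretch had an ETS match among the 30 transcribed bases of Ncapd2, and the second had one among those of Mrps12. The Mrpl30 stretch had an NRF1 match among the transcribed bases of Mitd1, and the Mrpl32 stretch had none of the 3. None of these matches lay between the starts. These 4 stretches are shorter than the 230-base windows, in which Mrpl32 and Mrps12 each had 1 YY1 match that lies outside the letters shown. A match is a description of the letters and says nothing of binding in these cells.

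Mrpl9 (ENSMUSG00000028140, chr3:94350631-94355831, plus strand) encodes a large-subunit protein with a bacterial counterpart that reaches out from the ribosome near the stalk where transfer RNAs leave. Its level was 78.3, 79.2 and 73.1 TPM in non-acclimated replicates 1, 2 and 3, and 182.7, 170.6 and 196.1 TPM in the cold-acclimated ones. The cold-acclimated libraries were all above the non-acclimated ones, and the spread within each condition was small beside the gap. The means were 76.8 ± 3.31 TPM and 183.2 ± 12.8 TPM (SD, n = 3 each), a 2.38-fold difference, and the log2 fold change was 1.24 (SE 0.20, limma adjusted p = 0.0095). It was higher in each of the 3 replicate pairs, by 1.21, 1.10 and 1.41 on the log2(TPM + 1) scale. Without both libraries of replicate 3 the log2 fold change was 1.15 with a limma adjusted p of 0.0105. With 1 library left out in turn the limma adjusted p ran from 0.0082 to 0.0518, the highest without non-acclimated replicate 2.

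Mrps25 (ENSMUSG00000014551, chr6:92146493-92161004, minus strand) encodes a small-subunit protein specific to mitochondria. It was at 34.2, 36.7 and 27.2 TPM at 37°C and at 6.98, 12.8 and 14.4 TPM at 26°C. The conditions did not overlap, and the largest difference was within replicate pair 1. The log2 fold change was -1.49 (SE 0.31, limma adjusted p = 0.0194). Nr2c2, which encodes an orphan nuclear receptor, lies on the opposite strand and shares 3547 bases with Mrps25 in the deposited coordinates. Its levels were 38.4, 32.6 and 26.9 TPM at 37°C and 8.27, 15.4 and 13.4 TPM at 26°C, with a log2 fold change of -1.36 (limma adjusted p = 0.021). The library preparation kept strand, but no source used here says whether the counting did, and if it did not, reads from the shared stretch cannot be told apart.

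Mrpl51 (ENSMUSG00000030335, chr6:125169163-125171355, plus strand), a large-subunit gene specific to mitochondria, was at 63.3, 81.4 and 61.6 TPM at 37°C and at 30.6, 17.9 and 26.9 TPM at 26°C. Every cold-acclimated library was below every non-acclimated one. The mean fell from 68.74 ± 10.96 TPM to 25.1 ± 6.53 TPM (SD, n = 3), with a log2 fold change of -1.44 (SE 0.27, limma adjusted p = 0.0148). Mrpl51 and Mrps25 were the genes also called downregulated after median of ratios scaling, with scaled log2 fold changes of -1.05 and -1.11.

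Mrpl14 (ENSMUSG00000023939, chr17:45991689-46009421, plus strand) encodes a protein at the face where both subunits meet, and had the lowest mean level of the 78 genes at 37°C. It was at 8.51, 11.8 and 7.90 TPM at 37°C and at 2.87, 3.04 and 3.96 TPM at 26°C, again without overlap. The log2 fold change was -1.27 (SE 0.28, limma adjusted p = 0.0211). Its values rest on a counted length of 7525 bases, whereas the canonical transcript has 1704, and on the opposite strand Tmem63b shares 5524 bases with it. Tmem63b, which encodes an ion channel of the membrane, had a log2 fold change of 0.03 (limma adjusted p = 0.952).

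Mrps12 (ENSMUSG00000045948, chr7:28439066-28441246, minus strand) encodes the protein of the decoding centre whose bacterial counterpart governs streptomycin sensitivity. It was at 55.1, 82.8 and 64.9 TPM at 37°C and at 25.3, 30.1 and 38.2 TPM at 26°C. The highest cold-acclimated library was below the lowest non-acclimated one. The log2 fold change was -1.09 (SE 0.26, limma adjusted p = 0.0276), and after scaling it was -0.70 with a limma adjusted p of 0.0710. Mrpl24 (ENSMUSG00000019710, chr3:87825438-87830757, plus strand), a protein at the exit of the peptide tunnel in bacterial ribosomes, was at 99.9, 118.7 and 84.8 TPM at 37°C and at 39.6, 53.7 and 64.9 TPM at 26°C. It was lower by less than the size required for a call, with a log2 fold change of -0.94 (SE 0.26, limma adjusted p = 0.0428), and after scaling the limma adjusted p was 0.139.

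Several omissions left fewer or no downregulated calls among the 78 genes, and fewer among all tested genes than the 16.0% of the main fit. Leaving out non-acclimated replicate 1, non-acclimated replicate 2 or cold-acclimated replicate 2 left 0 of the 78 genes called downregulated (all tested genes, 4.31%, 2.82% and 4.91%, respectively). In these fits 14, 12 and 10 of the 78 were lower at an unadjusted p under 0.05 in limma. The share of all tested genes under that unadjusted rule was not counted, so nothing is read from these 3 counts. Leaving out cold-acclimated replicate 1 left 1, Mrpl51 (1.28%, against 3.68%). The log2 fold changes themselves moved less, over the 6 omissions from -1.67 to -1.20 for Mrps25, from -1.59 to -1.22 for Mrpl51, from -1.38 to -1.11 for Mrpl14 and from -1.24 to -0.94 for Mrps12, with limma adjusted p of at most 0.0831, 0.0704, 0.0916 and 0.112. Leaving out cold-acclimated replicate 3 gave 13 (16.7%, against 22.3%). Without non-acclimated replicate 3, 4 were called downregulated, with Mrpl24 in place of Mrps12 (limma adjusted p = 0.0499 and 0.0512). The share of all tested genes in that fit was not counted.

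Without both libraries of replicate 3, 10 genes were called downregulated (12.8%, against 25.3%), all 4 above among them. Their log2 fold changes were then -1.80 for Mrps25, -1.57 for Mrpl51, -1.48 for Mrpl14 and -1.26 for Mrps12, with limma adjusted p of 0.0109, 0.0153, 0.0131 and 0.0196. Without both libraries of replicate 2, 0 of the 78 genes and 0.0% of all tested genes were called downregulated. In that fit 3 of the 78 were lower at an unadjusted p under 0.05 in limma, a rule for which the share of all tested genes was not counted. The log2 fold changes were then -1.51 for Mrps25, -1.10 for Mrpl51, -1.07 for Mrpl14 and -0.92 for Mrps12, and 1.31 for Mrpl9, with limma adjusted p of 0.204, 0.207, 0.251, 0.280 and 0.175.

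**Figure D2:**
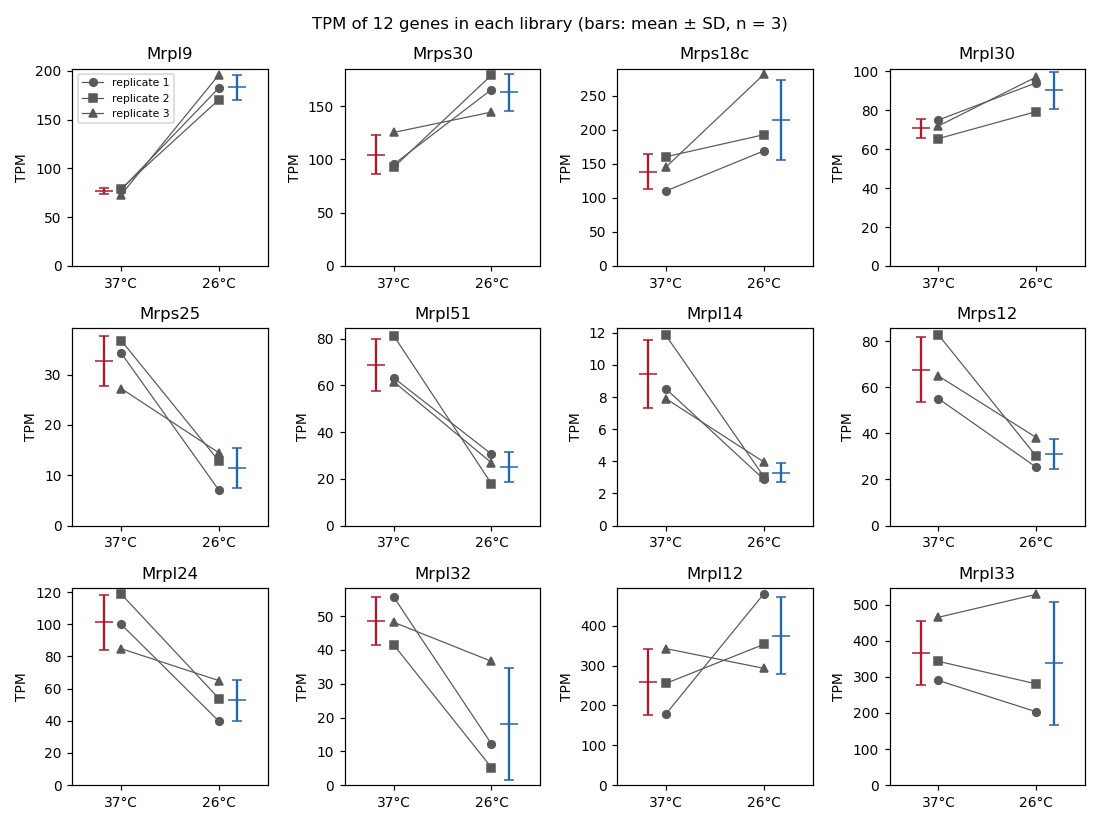
TPM of 12 genes in each library on linear axes from 0, with lines joining the 37°C and 26°C libraries of the same replicate number and coloured bars for the mean ± SD (n = 3). Mrpl9 rises alike in all 3 pairs, whereas Mrpl32 is at 12.2 and 5.21 TPM in cold-acclimated replicates 1 and 2 but at 36.6 TPM in replicate 3.

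Replicate numbers paired the libraries, since same-numbered libraries deviated together from their condition means. With the replicate number as a term in limma, Mrpl9 was again the 1 gene called upregulated (all tested genes, 3.75%), and 8 genes were called downregulated (10.3%, against 21.9%). These were the 4 above with Mrpl10, Mrpl32, Mrpl45 and Mrpl49. Without the requirement on size, 1 gene was higher (all tested genes, 6.89%) and 14 were lower (17.9%, against 29.0%). The paired counts of lower genes were again a smaller share than among all tested genes.

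Mrpl10 carries the Mrpl12 stalk, to which translation factors bind. It was at 142.2, 152.3 and 191.0 TPM at 37°C and at 74.9, 42.8 and 116.7 TPM at 26°C, with no overlap and a log2 fold change of -1.14 (SE 0.37). Its limma adjusted p was 0.0631, and 0.0180 with the replicate term. Mrpl45, which tethers the ribosome to the inner membrane at the tunnel exit, was at 28.6, 29.8 and 31.5 TPM at 37°C and at 16.4, 9.38 and 19.3 TPM at 26°C. Its log2 fold change was -1.01 (SE 0.30), with a limma adjusted p of 0.0509, and 0.0255 with the replicate term.

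Mrpl32 and Mrpl49, described here after their values were seen, showed the widest difference between replicate pairs among the lower genes named. Mrpl32, a bacterial-type protein that is matured by a protease inside mitochondria, was at 55.6, 41.5 and 48.2 TPM at 37°C and at 12.2, 5.21 and 36.6 TPM at 26°C. Its log2 fold change of -1.75 (SE 0.59) was the lowest of all 78 but its limma adjusted p was 0.0712, and 0.0236 with the replicate term. Without replicate 3 it was -2.44 with a limma adjusted p of 0.0089. Mrpl49 was at 55.5, 50.1 and 75.8 TPM at 37°C and at 19.0, 10.9 and 54.1 TPM at 26°C, so that cold-acclimated replicate 3 lay within the range of the non-acclimated libraries. Its log2 fold change was -1.36 (SE 0.53), with a limma adjusted p of 0.104, 0.0208 with the replicate term and 0.0097 without replicate 3.

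After median of ratios scaling, 3 genes were called upregulated, Mrpl9, Mrps18c and Mrps30 (3.85%, against 6.56% of all tested genes), and 2 were called downregulated (2.56%, against 8.8%). Mrps30, a large-subunit protein specific to mitochondria, was at 95.4, 92.5 and 125.4 TPM at 37°C and at 165.6, 179.2 and 144.5 TPM at 26°C. The conditions did not overlap. Its log2 fold change was 0.65 (SE 0.23, limma adjusted p = 0.0776), and after scaling 1.04 with a limma adjusted p of 0.0277. Without replicate 3 it was 0.87 with a limma adjusted p of 0.0244. Mrps18c was at 110.1, 160.2 and 145.2 TPM at 37°C and at 168.8, 192.5 and 281.0 TPM at 26°C, with a log2 fold change of 0.61 (SE 0.27, limma adjusted p = 0.149), and after scaling 1.01 with a limma adjusted p of 0.0298. Without replicate 3, whose cold-acclimated library was the highest, the unscaled value was 0.44 with a limma adjusted p of 0.247.

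Mrps18c is 1 of 3 paralogous proteins related to the same bacterial protein, and each has its own place in the ribosome. Its paralog Mrps18a, in the large subunit, was at 58.6, 79.7 and 113.1 TPM at 37°C and at 51.6, 41.1 and 69.5 TPM at 26°C, with a log2 fold change of -0.60 (SE 0.32, limma adjusted p = 0.208). Mrps18b, in the small subunit, was at 39.3, 60.2 and 55.3 TPM at 37°C and at 62.5, 68.7 and 50.1 TPM at 26°C, with a log2 fold change of 0.23 (SE 0.26, limma adjusted p = 0.548). The 3 point estimates differed in sign, and no paralog passed the test before scaling.

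Counted by overlap alone, 4 genes had every cold-acclimated library above every non-acclimated one (5.13%, against 9.69% of all tested genes), and 17 had every one below (21.8%, against 31.4%). The higher ones were Mrpl9, Mrps30, Mrps18c and Mrpl30. Within pairs, 11 genes were higher in all 3 (14.1%, against 18.2%) and 36 were lower in all 3 (46.2%, against 47.9%). These shares were close to or below those of all tested genes.

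The 78 genes together had a median log2 fold change of -0.26 (quartiles -0.58 and 0.15), 0.08 above the median of all tested genes. Of them, 44 lay above that median. Within replicate pairs 1, 2 and 3 their median was 0.29 above, 0.04 below and 0.10 above the median of all tested genes. Their log2 fold changes had an SD of 0.56, against 0.88 among all tested genes. Over the lists compared below, the SD ran from 0.21 for cytosolic ribosomal proteins to 0.91 for mitochondrial aminoacyl-tRNA synthetases. The median level of the 78 genes at 37°C was 67.3 TPM, against 23.5 TPM over all tested genes. The part of level in the SD was not tested.

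**Figure D3:**
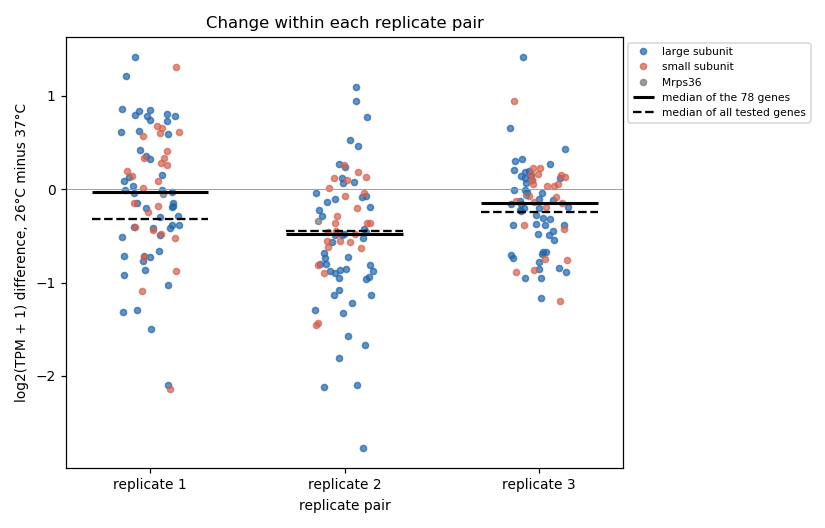
Differences of log2(TPM + 1), 26°C minus 37°C, within each replicate pair, with 1 point per gene (78 per pair, coloured by subunit) and lines for the medians of the 78 genes and of all tested genes. The median of the 78 genes is -0.03, -0.48 and -0.14 in pairs 1, 2 and 3, and the widest falls are in pairs 1 and 2.

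By subunit, the median log2 fold change relative to all tested genes was -0.03 over the 51 large-subunit genes and 0.20 over the 26 small-subunit genes. The genes with a bacterial counterpart had a relative median of 0.07 and those specific to mitochondria 0.30. These are descriptions of groups whose genes share their libraries. In sum, the 78 genes made up 5073, 6047 and 6789 TPM at 37°C and 5354, 4731 and 6397 TPM at 26°C. The ranges of both conditions overlapped, with means of 5970 ± 860.4 TPM at 37°C and 5494 ± 841.5 TPM at 26°C (SD, n = 3). The direction turned after median of ratios scaling, with sums of 4602, 5083 and 5872 at 37°C and 6429, 5694 and 6712 at 26°C, higher at 26°C in each of the 3 pairs. Scaling divided each library by 1.10, 1.19 and 1.16 at 37°C and by 0.83, 0.83 and 0.95 at 26°C. The scaled sum over all genes was therefore also higher at 26°C in each pair. The ratio of small- to large-subunit TPM was 0.519 ± 0.019 at 37°C and 0.535 ± 0.010 at 26°C (SD, n = 3).

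The most abundant genes at 37°C were Mrpl33, Mrpl12, Mrpl42, Mrpl13 and Mrpl10. Mrpl33, a small bacterial-type protein, was at 289.8, 342.8 and 464.8 TPM at 37°C and at 203.1, 280.4 and 528.5 TPM at 26°C, with overlap between the conditions. Mrpl12, the stalk protein that also binds the mitochondrial RNA polymerase, was at 178.9, 255.4 and 342.5 TPM at 37°C and at 480.0, 353.2 and 293.0 TPM at 26°C. The lowest non-acclimated library and the highest cold-acclimated one shared a replicate number, and the within-pair log2 differences were 1.42, 0.47 and -0.22 (limma adjusted p = 0.239). Mrpl42 was at 191.2, 250.6 and 241.0 TPM against 115.3, 143.2 and 211.6 TPM. Mrpl13 was at 162.9, 194.0 and 214.6 TPM against 142.8, 116.6 and 258.9 TPM. None of these 4 passed the test, and for each the conditions overlapped.

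At the other end, Mrpl27, a bacterial-type protein near the site of peptide bond formation, was at 9.65, 14.9 and 20.6 TPM at 37°C and at 8.63, 10.4 and 18.8 TPM at 26°C. Mrpl11, at the base of the stalk, was at 11.8, 15.7 and 25.8 TPM at 37°C and at 21.2, 14.9 and 28.6 TPM at 26°C. In both genes replicate 3 was the highest library of its condition. The widest spread between non-acclimated replicates was in Mrpl20, Mrps28 and Mrps34, and each was lowest in replicate 1. Mrps28 was at 12.7, 34.4 and 40.5 TPM at 37°C and at 33.0, 37.4 and 45.6 TPM at 26°C. Mrpl20 was at 28.8, 68.9 and 94.7 TPM against 50.3, 75.1 and 87.6 TPM, and Mrps34 at 59.7, 102.9 and 155.9 TPM against 96.2, 110.4 and 166.8 TPM. None of these 3 passed the test, and for each the conditions overlapped. Mrps28 and Mrps34 were higher at 26°C in all 3 pairs, and with the replicate term after scaling their log2 fold changes were 0.92 and 0.69, with limma adjusted p of 0.0524 and 0.0450.

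Other genes of the list with a known place or function gave values between these extremes. Mrpl58, which releases peptides from stalled ribosomes, was at 18.8, 18.7 and 24.8 TPM at 37°C and at 14.1, 9.17 and 12.3 TPM at 26°C, without overlap (log2 fold change -0.77, limma adjusted p = 0.0754, and 0.0441 with the replicate term). Mrpl43 was at 59.3, 69.7 and 72.3 TPM at 37°C and at 44.4, 37.8 and 39.6 TPM at 26°C (log2 fold change -0.71, limma adjusted p = 0.0514, and 0.0388 with the replicate term). Both passed the test with the replicate term and not without it, and after scaling neither passed with the term (log2 fold changes -0.39 for Mrpl58 and -0.32 for Mrpl43, limma adjusted p = 0.215 and 0.241). Mrps2, Mrpl53 and Mrps7 lay closest to the median of all tested genes, at 0.02, -0.03 and -0.03 relative to it. Mrps36 was at 73.3, 70.4 and 81.0 TPM at 37°C and at 70.5, 55.2 and 77.3 TPM at 26°C, with a log2 fold change of -0.15 (limma adjusted p = 0.655).

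Features that the choice by name did not use were set beside those of other tested protein-coding genes. The counted length of the 78 genes had a median of 1505.5 bases, against 3621 over 10368 other tested protein-coding genes. Their mean level at 37°C had a median of 67.3 TPM, against 28.6 TPM. Their canonical transcripts had a median of 5 exons, against 9. Within 230-base windows at the start sites, the ETS letters CCGGAAG were found for 28.2% of the 78 and 15.3% of 10186 other tested protein-coding genes, and the YY1 letters AAGATGG for 8.97% and 4.46%. The NRF1 letters were found for 10.3% and 9.08%, the E-box CACGTG for 6.41% and 8.76%, CCAAT for 28.2% and 35.7%, the GC box GGGCGG for 41.0% and 55.6%, and TATAAA for 8.97% and 5.46%. Both strands were searched and motifs could overlap. The transcripts of the factors themselves did not pass the test: Nrf1 had a log2 fold change of -0.10 (limma adjusted p = 0.843), Gabpa 0.53 (limma adjusted p = 0.227) and Yy1 -0.17 (limma adjusted p = 0.687).

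A neighbour starting within 1000 bases in the opposite direction was found for 14 of the 78 genes (17.9%), against 8.49% of the other tested protein-coding genes. In such an arrangement the stretch between the annotated starts lies upstream of both genes. Whether it acts as a promoter of both in these cells was not tested. In 1 of these arrangements, Mrpl46 with Mrps11, both are ribosomal protein genes. The Mrpl51 neighbour Ncapd2, a condensin subunit, was at 156.1, 181.6 and 130.1 TPM at 37°C and at 16.4, 11.8 and 70.6 TPM at 26°C, so that both genes fell (Ncapd2 log2 fold change -2.63, limma adjusted p = 0.023). The Mrps12 neighbour Sars2, the mitochondrial seryl-tRNA synthetase, was at 11.2, 13.8 and 15.8 TPM at 37°C and at 4.95, 3.50 and 10.2 TPM at 26°C (log2 fold change -1.11, limma adjusted p = 0.072, and 0.026 with the replicate term). Of the 12 arrangements whose neighbour was tested, 5 had both genes lower in all 3 pairs. They were Mrpl51 with Ncapd2, Mrps12 with Sars2, Mrpl41 with Pnpla7, Mrpl43 with Twnk, and Mrpl54 with Apba3. Taken singly, 47.9% of all tested genes were lower in all 3 pairs. The share of neighbouring genes that were both lower was not counted over all tested genes, so the count of 5 has no like share beside it. Pnpla7 had a log2 fold change of -1.29 (limma adjusted p = 0.031) beside -0.38 for Mrpl41, and Twnk, the mitochondrial DNA helicase, -0.79 (limma adjusted p = 0.092). Twnk shares 759 bases with Mrpl43 on the opposite strand in the deposited coordinates. If the counting did not keep strand, reads from that stretch cannot be told apart.

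Other neighbours differed from the ribosomal protein gene beside them. Mrpl30, described after its values were seen, was at 75.03, 65.5 and 72.0 TPM at 37°C and at 94.2, 79.4 and 97.2 TPM at 26°C (log2 fold change 0.34, limma adjusted p = 0.271). Its neighbour Mitd1, which acts in cell division, was at 14.3, 18.9 and 20.8 TPM at 37°C and at 3.69, 2.29 and 5.26 TPM at 26°C, and fell by 2.03 on the log2 scale (limma adjusted p = 0.009). The Mrps18b neighbour Ppp1r10, a regulator of a nuclear phosphatase that starts 598 bases away, was at 32.8, 51.6 and 54.2 TPM at 37°C and at 12.9, 4.81 and 4.76 TPM at 26°C (log2 fold change -2.57, limma adjusted p = 0.009). Psma2, a proteasome subunit and the neighbour of Mrpl32, was at 238.7, 271.4 and 258.2 TPM at 37°C and at 410.1, 364.2 and 417.8 TPM at 26°C (log2 fold change 0.63, limma adjusted p = 0.062, and 0.038 with the replicate term). The difference between a gene and its neighbour was not tested.

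**Figure D4:**
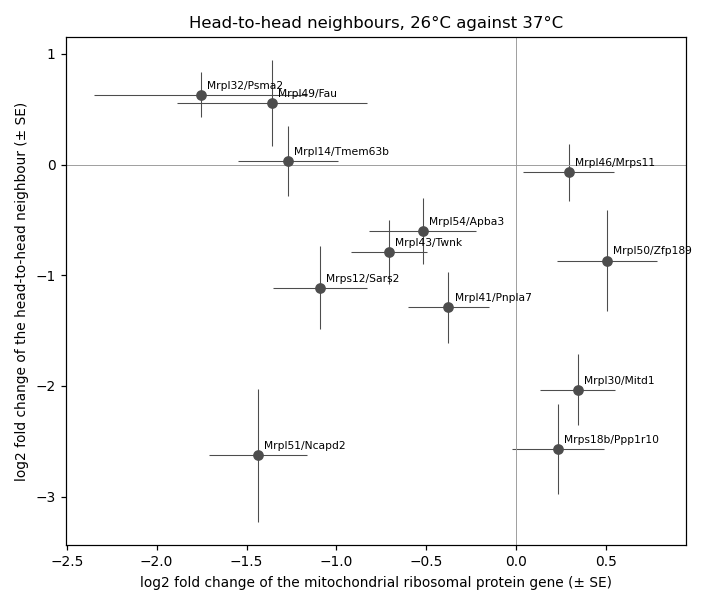
Log2 fold change of the ribosomal protein gene (x axis) and of its neighbour in the opposite direction (y axis), both on the log2(TPM + 1) scale with SE bars, for the 12 arrangements in which the neighbour was tested. Mrpl51 with Ncapd2 is low on both axes, whereas Mrpl30 with Mitd1 and Mrps18b with Ppp1r10 lie above 0 for the ribosomal protein gene and below -2 for the neighbour.

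Genes that act with the ribosomal proteins in mitochondrial gene expression are given for comparison. The counts of these lists stand beside shares of all tested genes of 16.0% called downregulated and 2.63% called upregulated. After median of ratios scaling these shares were 8.8% and 6.56%. The 5 further mitochondrial ribosomal proteins with other symbols, Dap3, Ptcd3, Chchd1, Aurkaip1 and Gadd45gip1, had log2 fold changes between -0.58 and -0.03, and none was called. Of 30 tested assembly factors, 9 were called downregulated and 0 upregulated, with a median of -0.29 relative to all tested genes. Tfb1m, which methylates the RNA of the small subunit, was at 6.64, 7.49 and 6.81 TPM at 37°C and at 0.272, 0.333 and 2.60 TPM at 26°C (log2 fold change -2.13, limma adjusted p = 0.0186). Mtg1, a GTPase of large-subunit assembly, had a log2 fold change of -1.75 (limma adjusted p = 0.0144). After scaling, 5 of the 30 were called downregulated.

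Of 18 translation factors, 8 were called downregulated and 0 upregulated (all tested genes, 16.0% and 2.63%), with a relative median of -0.67. After scaling, 5 were called downregulated (all tested genes, 8.8%). Tufm, the elongation factor that brings aminoacyl-tRNA to the ribosome, was at 94.9, 142.5 and 150.1 TPM at 37°C and at 20.7, 21.4 and 73.2 TPM at 26°C (log2 fold change -1.95, limma adjusted p = 0.0317). Taco1, a translational activator of a cytochrome oxidase subunit, was at 19.5, 30.6 and 31.5 TPM at 37°C and at 1.77, 1.22 and 5.95 TPM at 26°C (log2 fold change -2.98, limma adjusted p = 0.0090). In both genes the replicate 3 library was the highest of the cold-acclimated ones. Of 22 mitochondrial aminoacyl-tRNA synthetases, 7 were called downregulated and 0 upregulated (relative median -0.67), and after scaling 3 were called downregulated and 2 upregulated.

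Of 25 genes of mitochondrial transcription and RNA processing, 2 were called downregulated, Mgme1 and Mterf2 (all tested genes, 16.0%), with a relative median of -0.14. Of 31 genes of protein import, 1 was called upregulated, Timm29, and 2 downregulated, Timm21 and Pam16 (relative median 0.41), and after scaling 6 were called upregulated and 1 downregulated. The 9 tested biogenesis regulators had a relative median of 0.26 with 0 calls. The 13 proteins encoded in the mitochondrial genome, the products of this ribosome, had a relative median of 0.78 with 0 calls, and their within-pair medians were -0.20, 0.86 and 0.38. The 82 tested proteins of the cytosolic ribosome had a relative median of 0.67, also with 0 calls. Medians of the assembly and translation lists lay below that of the 78 genes and medians of the import and mitochondrially encoded lists above it. These differences between lists were not tested.

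**Figure D5:**
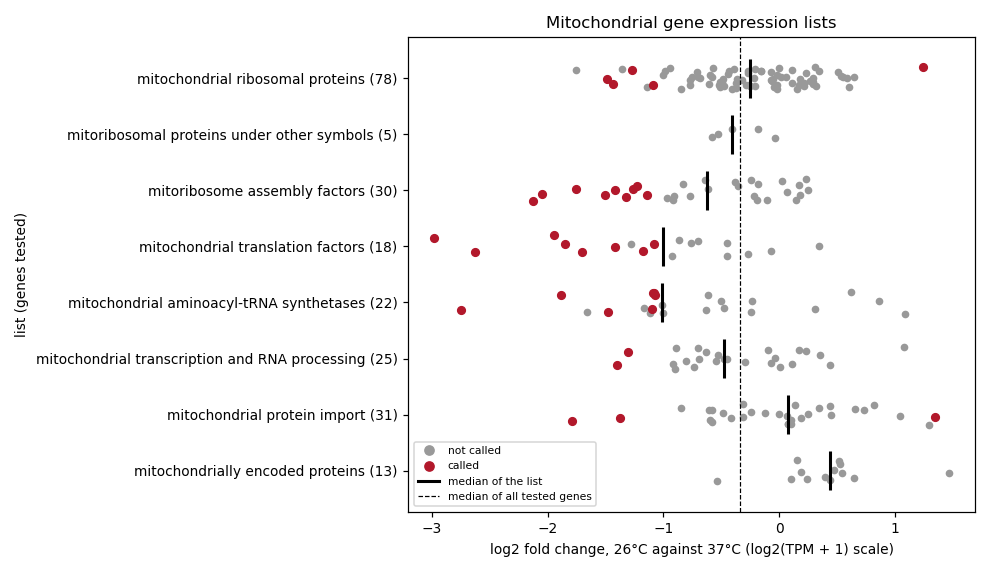
Log2 fold changes on the log2(TPM + 1) scale for each tested gene of 8 lists (number tested in brackets), with called genes in red, bars for list medians and a dashed line for the median of all tested genes. The 78 genes spread around the dashed line, whereas 8 of 18 translation factors and 7 of 22 aminoacyl-tRNA synthetases are called on the lower side (all tested genes, 16.0%).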

How the data were processed

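RNA of D10 cells was measured in 6 libraries, 3 non-acclimated and 3 cold-acclimated. Per the labels' processing notes, the authors used FastQC 0.11.7, Trimmomatic 0.38, HISAT2 2.1.0 and featureCounts 1.6.3 with GRCm39, and deposited TPM values per gene. The annotation release, the strand setting of the counting and the conversion to TPM were stated in none of the sources used. TPM values were whole multiples of a step in 100.0% of 21195 genes with a value above 0 (tolerance 0.001 reads), so reads were recovered from them.

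Genes with a mean of at least 1 TPM were tested with limma 3.58.1 (R 4.3.3, trend and 2 groups) on log2(TPM + 1), two-sided, with Benjamini-Hochberg adjustment over 12227 genes. The scripts were tested on simulated data. The alternatives were median of ratios scaling, a pseudocount of 0.1, no filter, the replicate number as a block, voom on the recovered reads, and each library left out. Same-numbered libraries of both conditions correlated in their deviations from the condition means at 0.48, 0.50 and 0.51, and other combinations at -0.41 to 0.02, so the numbers were taken to pair the libraries. The labels do not say what a number shares, and p-values measure the spread between these libraries. Extraction batches that the labels name were not mapped to libraries there, so batch was not modelled.

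The genes named were all called genes, the 8 with the smallest p, the 5 most and 3 least abundant, the 3 nearest the median of all tested genes, the 3 with the widest spread at 37°C, and those with a known special role. The ribosomal protein genes, the other lists and this rule were chosen with earlier results of these data known. All 78 identifiers were placed in GENCODE vM39.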

Additional observations from a re-analysis of the deposited data

How the results depend on the processing

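The 1 upregulated and 4 downregulated calls among the 78 genes became 3 and 2 after median of ratios scaling, and the counts without the requirement on size, 1 higher and 5 lower, became 4 and 3. With the replicate block 8 genes were called downregulated and 14 were lower. By voom on the recovered reads 2 were called upregulated, 3 were higher and 3 were lower. For these voom counts, and for the scaled counts without the requirement on size, the shares of all tested genes were not counted. Without the filter on low values the median of the 78 genes relative to all tested genes was -0.19 in place of 0.08, since 21195 genes then set the median. Further settings were chosen after seeing the data. Without both libraries of replicate 3, 10 genes were called downregulated, 2 were higher and 14 were lower, and without both libraries of replicate 2 each of these counts was 0, the upregulated one included. The replicate block with scaling gave 3 called upregulated and 8 higher, and 3 called downregulated and 7 lower. The shares of all tested genes in that fit were not counted. For the fits without replicate 2 or 3 they were counted for the downregulated calls only. Nothing is read from counts without such a share.

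With 1 library left out in turn, the genes called upregulated numbered 0 to 1, those called downregulated 0 to 13, those higher 0 to 1, those lower 0 to 16, and the relative median ran from 0.02 to 0.19. For these fits, shares of all tested genes were counted only for downregulated calls, as given above. The named genes with a limma adjusted p under 0.05 in the main fit kept their sign in every setting. Some of the other named genes changed sign. Mrps36 went from -0.16 to 0.24 after scaling, and Mrpl20 from 0.27 to -0.22 without non-acclimated replicate 1. With 3 libraries per condition and a count of 36 to 5912 reads per gene and library, the SE of the log2 fold change had a median of 0.28. The cause of these dependences was not tested.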
